A study of Homo sapiens with 20 samples.

Results

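The genes described here are 10 parts of the bone morphogenetic protein (BMP) and transforming growth factor-beta (TGF-beta) response: the ID genes ID1, ID2, ID3 and ID4, and the feedback and receptor genes SMAD6, SMAD7, BAMBI, PMEPA1, BMPR1B and SKIL. They were taken by symbol from the probe sets annotated to exactly 1 gene, and each gene is read from its brightest probe set, by the mean of all 20 arrays. All 10 were found, among 19775 genes measured in this way, and together they have 26 of the 54675 probe sets on the array. No filter on low values was applied, so each of the 10 entered every test. In 57 of the 60 combinations of gene and group the group mean was at least 6 on the log2 scale, called bright here. The other 3 were dim: ID1 in LNCaP with siLSD1 and ID4 in both LNCaP groups. The same level of 6 was used in every experiment, although array medians were lower in LNCaP. Being bright or dim may therefore partly reflect the scaling of an experiment.

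The study asked how the RNA of prostate cancer cells changes when the histone demethylase LSD1 (gene KDM1A) is suppressed by RNA interference or when the cells receive the androgen dihydrotestosterone (DHT). LSD1 removes methyl groups from histone lysines and works with the androgen receptor in these cells. LNCaP is an androgen-responsive prostate cancer line, and C42B is a castration-resistant line derived from it. C42B cells were transfected for 6 h with a small interfering RNA against LSD1 (siLSD1) or a non-targeting control (siNTC). The next 96 h were spent in RPMI with 10% charcoal-stripped serum (CSS), which is low in steroids (3 arrays each). LNCaP cells received siLSD1 or siNTC at 50 nM for 96 h in medium with 10% fetal bovine serum, and the RNA of 2 wells was pooled for each of the 3 replicates per group. The androgen experiment used C42B cells that had stood in 10% CSS for 72 h, given DHT at 100 nM or ethanol as its vehicle for a further 16 h (4 arrays each). No label says that wells came from independent cultures, so a p-value speaks only to the spread among the arrays of a group, which may be technical. The labels give a single siLSD1 per line, without its sequence. Comparing the siRNA effect between the lines also carries a change of serum and of protocol, so line, serum and protocol cannot be told apart.

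BMP ligands bind receptor pairs whose kinases phosphorylate SMAD proteins, and these SMADs enter the nucleus and switch on target genes, the ID genes among the best known. ID proteins are helix-loop-helix proteins without a DNA-binding region, so they hold E proteins and related partners away from DNA and tend to keep cells undifferentiated and dividing. The same signals switch on their own brakes: the inhibitory SMADs block the receptors, BAMBI is a receptor decoy without a kinase, PMEPA1 sequesters receptor-activated SMADs, and SKIL represses SMAD targets in the nucleus.

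The genes lie on several chromosomes of the GRCh38.p14 build, in the RefSeq annotation. ID1 (probe set 208937_s_at) lies at chr20:31605289-31606510, ID2 (201565_s_at) at chr2:8682056-8684461, ID3 (207826_s_at) at chr1:23557926-23559501 and ID4 (209293_x_at) at chr6:19837370-19842197. The inhibitory SMAD genes are SMAD6 (207069_s_at) at chr15:66702236-66782849 and SMAD7 (204790_at) at chr18:48919853-48950965. BAMBI (203304_at) lies at chr10:28677521-28682932, PMEPA1 (222450_at) at chr20:57648396-57711472, BMPR1B (229975_at) at chr4:94757955-95158450 and SKIL (225227_at) at chr3:170357715-170396849. Where in a transcript each probe set lies was not analysed here.

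The 250 bases before the annotated start are given for ID1, ID3, BAMBI and PMEPA1, and not for BMPR1B, which changed most with DHT. ID1 and ID3 fell together with siLSD1, while BAMBI and PMEPA1 went opposite ways with DHT. Capitals mark GGCGCC, the core of a GC-rich element of BMP-responsive genes. It was searched on both strands, on which it reads the same. PMEPA1 has several annotated starts, and the window printed was chosen because it holds this word.

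ID1, chr20:31605039-31605288, plus strand: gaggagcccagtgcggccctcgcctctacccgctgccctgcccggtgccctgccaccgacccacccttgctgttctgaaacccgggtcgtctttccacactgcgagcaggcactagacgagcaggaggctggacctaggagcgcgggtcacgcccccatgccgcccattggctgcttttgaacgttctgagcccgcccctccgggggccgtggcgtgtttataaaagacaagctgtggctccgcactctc

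ID3, chr1:23559502-23559751, minus strand: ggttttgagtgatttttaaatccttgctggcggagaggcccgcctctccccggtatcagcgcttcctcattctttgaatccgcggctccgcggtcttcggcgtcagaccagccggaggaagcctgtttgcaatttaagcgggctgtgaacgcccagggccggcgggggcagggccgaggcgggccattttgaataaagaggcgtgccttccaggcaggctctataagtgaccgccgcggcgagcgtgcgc

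BAMBI, chr10:28677271-28677520, plus strand: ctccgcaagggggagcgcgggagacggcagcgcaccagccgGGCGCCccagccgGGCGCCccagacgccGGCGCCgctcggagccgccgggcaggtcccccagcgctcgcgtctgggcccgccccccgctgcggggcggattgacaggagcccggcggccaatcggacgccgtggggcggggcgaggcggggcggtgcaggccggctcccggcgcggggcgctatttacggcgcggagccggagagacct

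PMEPA1, chr20:57711473-57711722, minus strand, 1 of its 4 annotated starts: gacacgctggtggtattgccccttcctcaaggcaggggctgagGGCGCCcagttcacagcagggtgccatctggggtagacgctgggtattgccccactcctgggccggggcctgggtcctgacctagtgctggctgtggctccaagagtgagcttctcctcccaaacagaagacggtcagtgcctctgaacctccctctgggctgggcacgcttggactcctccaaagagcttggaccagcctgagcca

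These letters stood 209, 196 and 181 bases before the start in BAMBI, 207 bases before it in this PMEPA1 window, and 190 bases before the start of SKIL, and in no other window of the 10 genes. That is 3 of the 10 genes and 3 of their 17 windows, beside 16.4% of all 35116 RefSeq promoters, each searched over the same 250 bases before its start. A rarer word, GTCTAGAC, the palindrome of the SMAD binding box, was also searched and also reads the same on both strands. It occurred in 0.182% of the windows and, among the 10 genes, in SMAD6 alone, 12 bases before the start. The 30 bases next to that start are shown with the word in capitals, and the 2 words overlapped in no window printed.

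SMAD6, chr15:66702206-66702235, plus strand: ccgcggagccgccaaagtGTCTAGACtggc

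A match of letters is a description of the window and not a binding site. ID1 and ID3, which moved most with siLSD1 in LNCaP, hold neither word in these bases.

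The knockdown was checked first. KDM1A fell in C42B from 10.29 ± 0.08 to 7.88 ± 0.12 (log2 intensity, mean ± SD, n = 3 each), and in LNCaP from 10.08 ± 0.14 to 7.30 ± 0.09. On the linear scale it fell by 81.1% in C42B (adjusted p = 1.2e-05, limma) and it fell by 85.4% in LNCaP (adjusted p = 2.4e-06). DHT raised KDM1A by 0.16 ± 0.04 (SE) on the log2 scale (adjusted p = 0.020), a call lost without vehicle replicate 4 (0.057) or with all 20 arrays in 1 model (0.064). Array medians of intensity ran from 78.4 to 81.2 for siRNA in C42B, from 84.1 to 86.1 for androgen and from 63.3 to 65.1 for LNCaP. The experiments were apparently normalized apart, so a level is set against its own control only. Of the luminal prostate markers, EPCAM, FOLH1, KLK3, KRT18 and KRT8 were measured, and all 5 were bright in every group. Their summed intensity was higher with DHT (39213 to 40918) than with vehicle (18048 to 19257), with siLSD1 than siNTC in C42B (36013 to 36198 against 30637 to 31734) and in LNCaP (19988 to 21089 against 18005 to 19077). Much of the rise in C42B lay in KLK3. Its mean intensity was 16208 with DHT and 2425 with vehicle, and in C42B 17204 with siLSD1 and 13052 with siNTC. With DHT 3 of the 5 passed upward and 2 downward: FOLH1 fell from 9.83 to 9.29 and EPCAM from 12.68 to 12.52 on the log2 scale. With siLSD1 1 of the 5 passed in each line, upward. Basal markers (KRT5 and KRT14) summed to 90.3 to 122 over all arrays. The sum of 8 stromal, endothelial and leukocyte markers ran in C42B from 773 to 914 with siLSD1, from 812 to 883 with siNTC, from 941 to 1037 with DHT and from 1012 to 1186 with vehicle. In LNCaP it ran from 709 to 725 with siLSD1 and from 732 to 818 with siNTC. With DHT 1 of these 8 passed, downward, in LNCaP also 1 downward, and in C42B with siLSD1 none. COL3A1, a collagen gene, stood at 5.60 with DHT and 7.20 with vehicle, and in LNCaP at 6.13 with siLSD1 and 6.90 with siNTC. Of the list, PTPRC, CDH5 and COL1A2 were dim in every group, while COL1A1, PECAM1 and VWF were bright in every group and CD3E in both androgen groups. The signal of the 3′ beyond the 5′ actin probe set, a sign of RNA integrity, ran in C42B from 1.17 to 1.31 with siLSD1 and from 1.13 to 1.19 with siNTC. LNCaP had 0.93 to 1.09 under siLSD1 and 0.82 to 0.98 under siNTC, and in the androgen experiment 0.91 to 1.16 with DHT and 0.90 to 1.12 with vehicle. The part of luminal gene output, of the stromal sum and of RNA integrity in the differences below was not tested.

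The main pattern was that siLSD1 lowered ID1 and ID3 in both lines, far more in LNCaP than in C42B, and raised the decoy receptor BAMBI in both. The ID3 call in C42B held in 10 of 15 alternative fits. DHT lowered BAMBI and SMAD7 and raised PMEPA1 and BMPR1B 7.58-fold and 8.93-fold. It also lowered ID2 and SKIL, but each of these calls held in only 13 of 17 alternative fits. None of the other SKIL probe sets passed with DHT. With siLSD1 in C42B, 3 of the 10 genes passed the test upward and 2 downward, at a Benjamini-Hochberg adjusted p under 0.05 over all genes. Over all 19775 genes, 8.66% passed upward and 9.39% downward. In LNCaP, 2 passed upward and 3 downward, beside 13.4% and 12.5% of all genes. With DHT, 2 passed upward and 4 downward, beside 13.4% and 19.4%. The siLSD1 effect differed between the lines for 5 genes: it was more positive in C42B for 4 and less positive for 1, beside 5.56% and 6.07% of all genes. The median size of the log2 difference over the 10 genes was 0.26 in C42B, 0.40 in LNCaP and 0.25 with DHT, where all genes had 0.11, 0.12 and 0.12. Signed medians were −0.10, 0.01 and −0.12, so rises and falls were mixed. The 10 genes were chosen with earlier results of these data known, and all genes include dim ones. These medians are therefore no test of a larger response of the 10 genes. In these bulk cultures, fewer cells with a transcript and less of it per cell cannot be told apart.

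**Figure D1:**
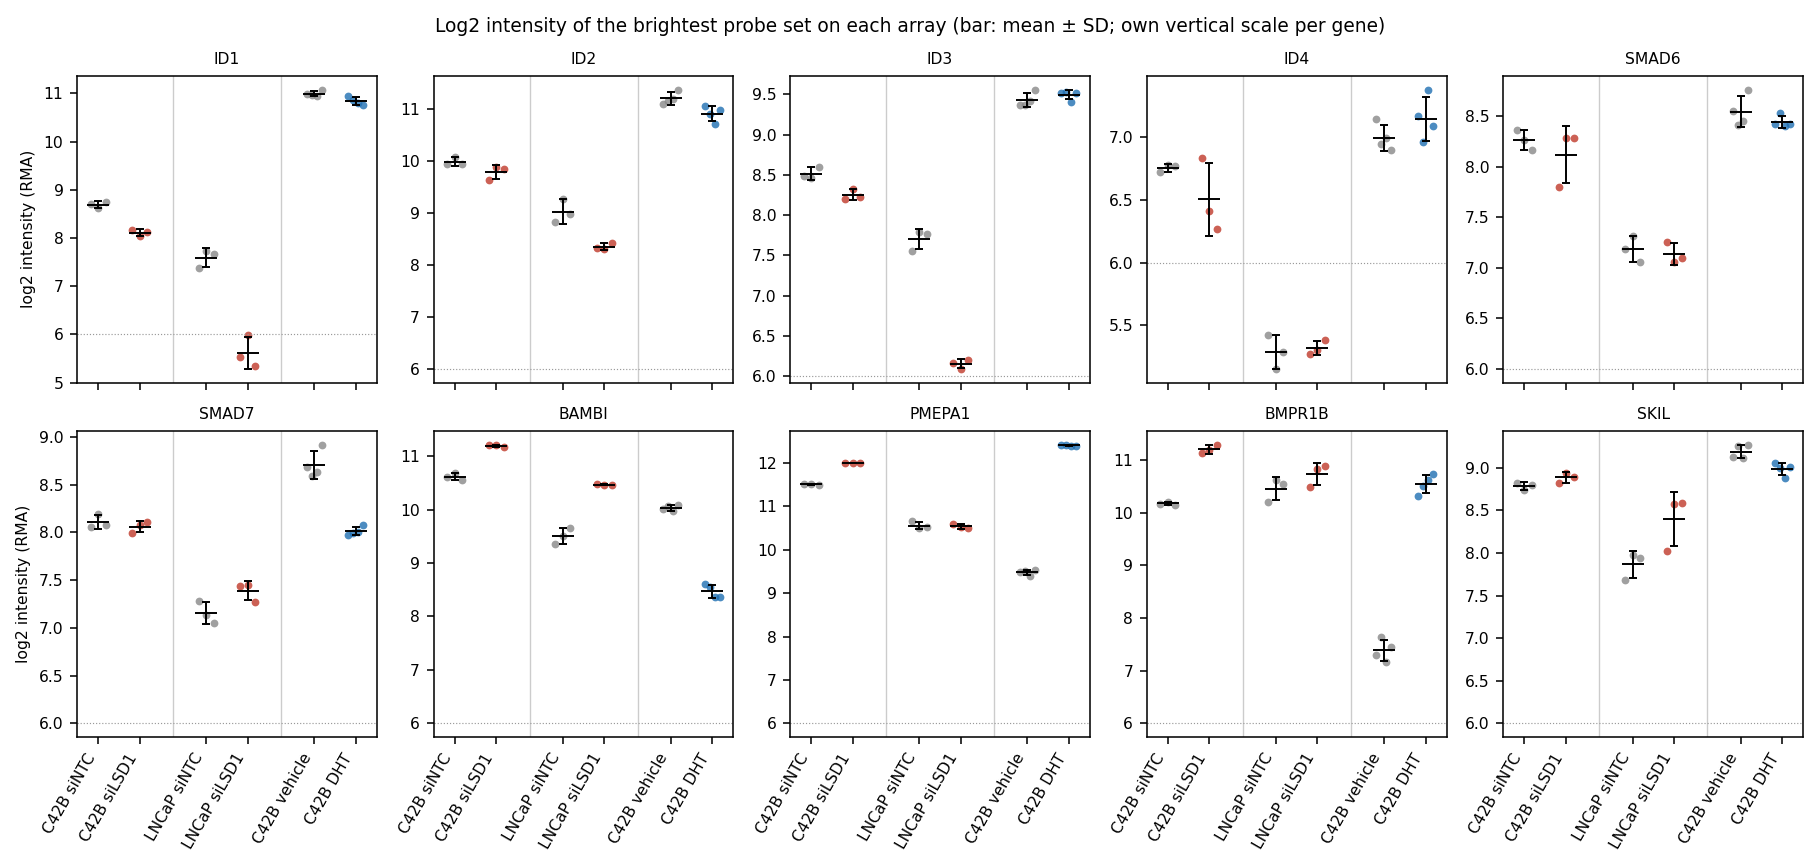
Log2 intensity of the 10 genes on each of the 20 arrays, 1 panel per gene, with arrays as points, the group mean ± SD as a bar, the level of 6 as a dotted line and a vertical scale of its own in each panel. ID1 and ID3 lie lower with siLSD1 than with siNTC in both lines, and PMEPA1 and BMPR1B lie at 12.38 to 12.42 and 10.32 to 10.73 with DHT, above all 4 vehicle arrays.

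At the receptor level, BMPR1B encodes a type I BMP receptor, the kinase that phosphorylates the BMP-specific SMADs. Its log2 intensity in C42B was 11.13, 11.19 and 11.29 with siLSD1 and 10.17, 10.21 and 10.15 with siNTC. Every siLSD1 array was higher than every siNTC array. It rose 2.04-fold (1.03 ± 0.06 on the log2 scale, SE, adjusted p = 1.6e-04), the 45th largest log2 difference of all genes by size. In LNCaP the values were 10.50, 10.82 and 10.89 with siLSD1 and 10.20, 10.62 and 10.55 with siNTC. These groups overlap, and the difference of 0.28 ± 0.13 did not pass (95% interval −0.03 to 0.59, adjusted p = 0.18). It passed when the replicate number was a block in the model (adjusted p = 0.020). The effects of the 2 lines differed by 0.75 ± 0.16 (adjusted p = 0.010). In the androgen experiment BMPR1B stood at 10.32, 10.51, 10.63 and 10.73 with DHT and at 7.29, 7.63, 7.17 and 7.45 with vehicle. The groups lay far apart, and the rise of 3.16 ± 0.11 (adjusted p = 5.0e-08) ranked 21st of all genes by size. Its other 2 probe sets also rose with DHT, by 2.61 and 2.84, and with siLSD1 in C42B, by 0.89 and 0.93. In LNCaP they disagreed: 210523_at fell by 0.31 (adjusted p = 0.012) and 242579_at differed by 0.11 (adjusted p = 0.69). The LNCaP value of BMPR1B therefore depends on the probe set read.

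BAMBI, the decoy receptor, was the only one of the 10 genes that passed in all 3 comparisons of treated with control arrays. The share of all genes passing in all 3 is not given here, so this only describes BAMBI. In C42B the log2 intensity of BAMBI was 11.21, 11.21 and 11.17 with siLSD1 and 10.62, 10.69 and 10.55 with siNTC. In LNCaP it was 10.48, 10.46 and 10.46 with siLSD1 and 9.36, 9.50 and 9.65 with siNTC. Neither line had overlapping groups, and BAMBI rose 1.49-fold in C42B (0.58 ± 0.05, adjusted p = 7.8e-04) and 1.95-fold in LNCaP (0.96 ± 0.08, adjusted p = 6.9e-05). The rise was smaller in C42B by 0.38 ± 0.10 (difference −0.38, adjusted p = 0.021). That difference missed the threshold without siLSD1 replicate 3 (adjusted p = 0.056) or siNTC replicate 2 of C42B (adjusted p = 0.053). With DHT the direction was opposite: 8.60, 8.54, 8.36 and 8.37 against 10.01, 10.06, 9.97 and 10.08 with vehicle. All 4 DHT arrays lay below all 4 vehicle arrays, and BAMBI fell by 66.1% (−1.56 ± 0.06, adjusted p = 1.1e-07). Only 1 probe set measures BAMBI, so no second one could be read.

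Among the intracellular brakes, PMEPA1 is a membrane protein first known as androgen-induced, which binds receptor-activated SMADs. With DHT it stood at 12.42, 12.42, 12.38 and 12.40, and with vehicle at 9.50, 9.50, 9.40 and 9.53. The replicates were tight, and the rise of 2.92 ± 0.04 (adjusted p = 1.7e-10) was the 33rd largest of all genes by size. In C42B it stood at 12.005, 11.989 and 11.998 with siLSD1 and at 11.520, 11.522 and 11.497 with siNTC. It rose 1.40-fold there (0.48 ± 0.04, adjusted p = 7.6e-04). In LNCaP the values were 10.59, 10.53 and 10.49 with siLSD1 and 10.65, 10.50 and 10.51 with siNTC, which overlap. The LNCaP difference was −0.02 ± 0.07 (95% interval −0.17 to 0.13, adjusted p = 0.89), and the 2 lines differed by 0.50 ± 0.08 (adjusted p = 0.0013). The other 2 PMEPA1 probe sets differed in LNCaP by −0.19 (217875_s_at, adjusted p = 0.092) and −0.40 (222449_at, adjusted p = 0.0024), and the mean of the 3 by −0.20 (adjusted p = 0.014). In C42B they differed by 0.47 (adjusted p = 0.0027) and 0.16 (adjusted p = 0.095), and with DHT they rose by 2.67 and 2.85. The androgen rise and the difference between the lines passed on all 3 probe sets.

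SMAD7 blocks receptors of both branches, and SMAD6 mainly those of BMPs. SMAD7 stood at 7.97, 7.99, 8.01 and 8.08 with DHT and at 8.68, 8.59, 8.63 and 8.92 with vehicle. No DHT array reached a vehicle array, and SMAD7 fell by 38.0% (−0.69 ± 0.07, adjusted p = 5.7e-05). With siLSD1 it differed by −0.05 ± 0.06 in C42B (95% interval −0.19 to 0.09, adjusted p = 0.64). In LNCaP it stood at 7.44, 7.45 and 7.27 with siLSD1 and at 7.28, 7.14 and 7.05 with siNTC, a difference of 0.23 ± 0.08 (95% interval 0.05 to 0.42, adjusted p = 0.068). The LNCaP difference passed at 0.30 without siNTC replicate 1 (adjusted p = 0.026). With all arrays kept it passed in 4 other settings (0.027 to 0.041). SMAD6 passed in none of the comparisons. Its arrays lay between 7.80 and 8.36 for siRNA in C42B, between 7.06 and 7.31 in LNCaP and between 8.41 and 8.76 in the androgen experiment. The SMAD6 differences were −0.14 ± 0.13, −0.05 ± 0.08 and −0.10 ± 0.07 in that order, and none of its other 3 probe sets passed.

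SKIL, a nuclear corepressor that is itself induced by TGF-beta, passed in opposite directions in 2 comparisons. In LNCaP it stood at 8.03, 8.58 and 8.59 with siLSD1 and at 7.69, 7.98 and 7.94 with siNTC. These groups are apart by a small gap, since siLSD1 replicate 1 lies just above the highest siNTC array. SKIL rose 1.44-fold (0.53 ± 0.15, adjusted p = 0.035). The call was lost without siLSD1 replicate 2 (adjusted p = 0.12) or 3 (0.13), or siNTC replicate 1 (0.094), 2 (0.057) or 3 (0.066). With DHT it stood at 9.05, 9.00, 8.88 and 9.01 against 9.13, 9.25, 9.12 and 9.27 with vehicle. It fell by 13.3% (−0.21 ± 0.06, adjusted p = 0.018), without overlap, but the call was lost without vehicle replicate 2 or 4 (adjusted p = 0.051 for each), and with all 20 arrays in 1 model (0.11). In C42B siLSD1 arrays the difference was 0.10 ± 0.05 (95% interval −0.03 to 0.23, adjusted p = 0.26). A second bright SKIL probe set, 217591_at, rose in LNCaP by 0.52 (adjusted p = 0.0068) and did not pass with DHT. The other 3 SKIL probe sets were dim and passed in none of these comparisons, and with the mean of all probe sets neither SKIL call held (adjusted p = 0.087 in LNCaP and 0.77 with DHT).

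Of the targets, ID1 and ID3 had the largest siLSD1 changes. In LNCaP its log2 intensity was 7.37, 7.73 and 7.67 with siNTC and 5.53, 5.99 and 5.34 with siLSD1. All 3 siLSD1 arrays lay below the bright level of 6, so the fall is counted from 6 and was at least 1.59 on the log2 scale, or at least 3.01-fold lower. The measured difference, which includes dim values, was −1.97 ± 0.16 (adjusted p = 7.8e-05). In C42B ID1 stood at 8.17, 8.04 and 8.12 with siLSD1 and at 8.70, 8.61 and 8.76 with siNTC. The groups did not overlap, and ID1 fell by 33.1% (−0.58 ± 0.06, adjusted p = 0.0012). The fall in C42B was smaller than that in LNCaP by 1.39 ± 0.19 (adjusted p = 6.9e-04), or by at least 1.01 when counted from 6. With DHT it stood at 10.96, 10.86, 10.80 and 10.76, and with vehicle at 10.99, 10.96, 10.95 and 11.07, a difference of −0.15 ± 0.05 that did not pass (adjusted p = 0.059). Replicate 1 of DHT lay within the range of the vehicle arrays, and without it the difference was −0.19 and passed (adjusted p = 0.024). With all arrays kept it also passed with bright genes only (0.033), quantile normalization (0.042) and a robust eBayes trend (0.0056).

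ID3 moved with ID1 under siLSD1. In LNCaP it stood at 6.17, 6.09 and 6.21 with siLSD1 and at 7.56, 7.79 and 7.77 with siNTC. The siLSD1 values lay just above the level of 6, so the size of the fall in LNCaP is uncertain. Replicates were close within each group and the groups far apart, and ID3 fell by 65.8% (−1.55 ± 0.08, adjusted p = 1.0e-05). This was the 55th largest difference of all genes by size. In C42B it stood at 8.20, 8.33 and 8.23 with siLSD1 and at 8.49, 8.46 and 8.60 with siNTC. The groups were apart, and ID3 fell by 16.8% (−0.26 ± 0.06, adjusted p = 0.024). This C42B call was lost without siLSD1 replicate 1 (adjusted p = 0.051) or 3 (0.089), or siNTC replicate 1 (0.059) or 3 (0.073). The 2 lines differed by 1.28 ± 0.10 (adjusted p = 1.9e-05). With DHT the arrays lay at 9.41 to 9.53 and with vehicle at 9.37 to 9.55, and the difference was 0.06 ± 0.05 (adjusted p = 0.41). ID1 and ID3 have 1 probe set each.

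ID2 stood in LNCaP at 8.33, 8.30 and 8.42 with siLSD1 and at 8.82, 9.27 and 8.98 with siNTC. No arrays overlapped, and ID2 fell by 37.4% (−0.67 ± 0.11, adjusted p = 0.0024). Its second probe set differed by −0.53 there (adjusted p = 0.060). With DHT it stood at 11.06, 10.89, 10.71 and 10.97 against 11.09, 11.15, 11.20 and 11.36 with vehicle. It fell by 18.4% (−0.29 ± 0.08, adjusted p = 0.024), on groups separated by a narrow gap. The androgen call was lost without DHT replicate 2 (adjusted p = 0.055) or 3 (0.051), or vehicle replicate 3 (0.054) or 4 (0.064). The second ID2 probe set differed by −0.32 with DHT (adjusted p = 0.032) and by −0.18 with siLSD1 in C42B (adjusted p = 0.12). In C42B ID2 stood at 9.63, 9.89 and 9.84 with siLSD1 and at 9.95, 10.08 and 9.93 with siNTC, which do not overlap, and the difference of −0.20 ± 0.08 did not pass (adjusted p = 0.14). The lines' difference of 0.48 ± 0.15 did not pass either (adjusted p = 0.055). It passed without siLSD1 replicate 1 of C42B (0.56, adjusted p = 0.029) or siNTC replicate 1 of LNCaP (0.58, adjusted p = 0.013). With all arrays kept it passed in 5 other settings (0.0084 to 0.043).

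ID4 was the member of the family with no call. In LNCaP both groups were dim (5.32 ± 0.05 with siLSD1 and 5.29 ± 0.13 with siNTC), so no change could be read there. In C42B it stood at 6.83, 6.41 and 6.27 with siLSD1 and at 6.72, 6.78 and 6.77 with siNTC. Replicate 1 of siLSD1 lay above all siNTC arrays and the other 2 below them. The difference was −0.25 ± 0.13 (adjusted p = 0.24), and −0.41 without that replicate (adjusted p = 0.0075). With arrayWeights it was −0.36 and also passed (adjusted p = 0.041). With DHT the arrays ran from 6.96 to 7.37 and with vehicle from 6.89 to 7.14, a difference of 0.15 ± 0.09 (adjusted p = 0.23). Its 4 other probe sets were dim in both groups with DHT, and 3 of them were called higher. With DHT the mean of the 5 differed by 0.30 (adjusted p = 0.0041).

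**Figure D2:**
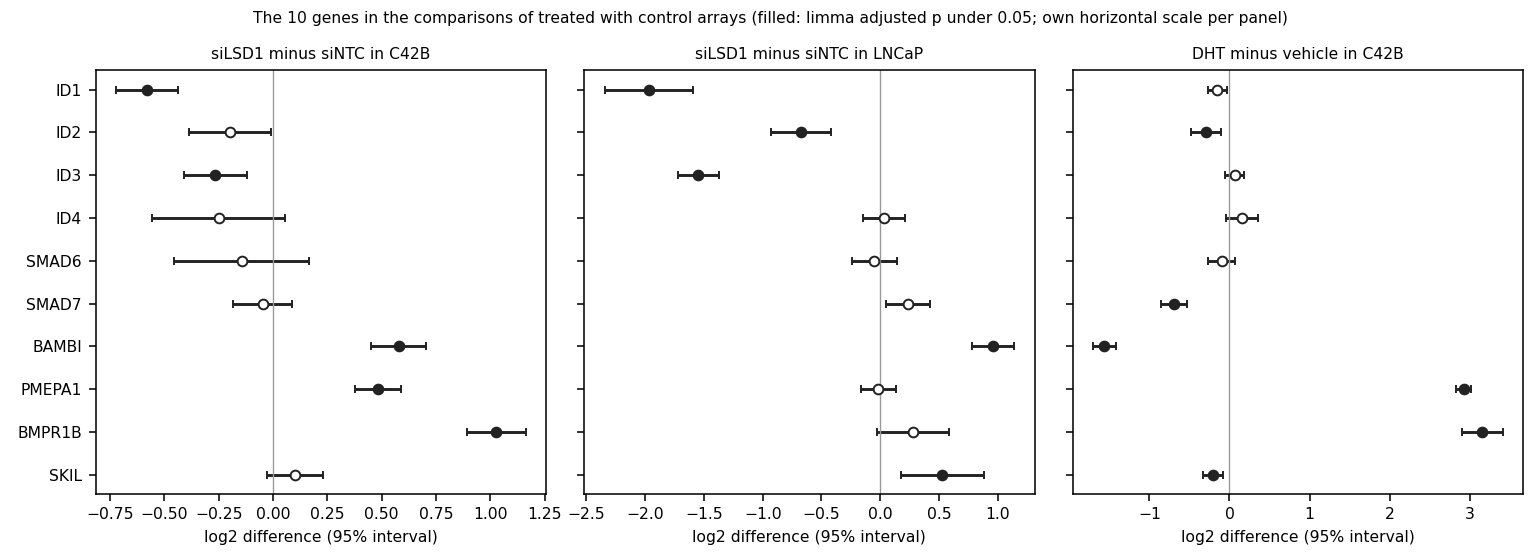
Log2 difference with its 95% interval for each of the 10 genes (rows) for siLSD1 in each line and for DHT in C42B (panels), with filled points for an adjusted p under 0.05. BMPR1B and PMEPA1 lie at 3.16 and 2.92 with DHT and BAMBI at −1.56, while ID1 and ID3 lie at −1.97 and −1.55 with siLSD1 in LNCaP.

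Between the lines, then, the siLSD1 effects of ID1 and ID3 were more negative in LNCaP, those of BMPR1B and PMEPA1 more positive in C42B, and that of BAMBI more positive in LNCaP. The median size of the difference between lines was 0.45 over the 10 genes and 0.13 over all genes, which is likewise no test of a larger response. The remaining differences, which did not pass, were −0.28 ± 0.16 for ID4, −0.09 ± 0.17 for SMAD6, −0.28 ± 0.10 for SMAD7 and −0.43 ± 0.18 for SKIL, besides that of ID2. Some of these depended on 1 array. The difference of ID4 was −0.44 without siLSD1 replicate 1 of C42B (adjusted p = 0.019), that of SKIL −0.61 without siLSD1 replicate 1 of LNCaP (0.0063) and that of SMAD7 −0.35 without siNTC replicate 1 of LNCaP (0.033). With all arrays kept, that of ID4 passed with arrayWeights (0.047) and that of SKIL with the replicate block (0.037).

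**Figure D3:**
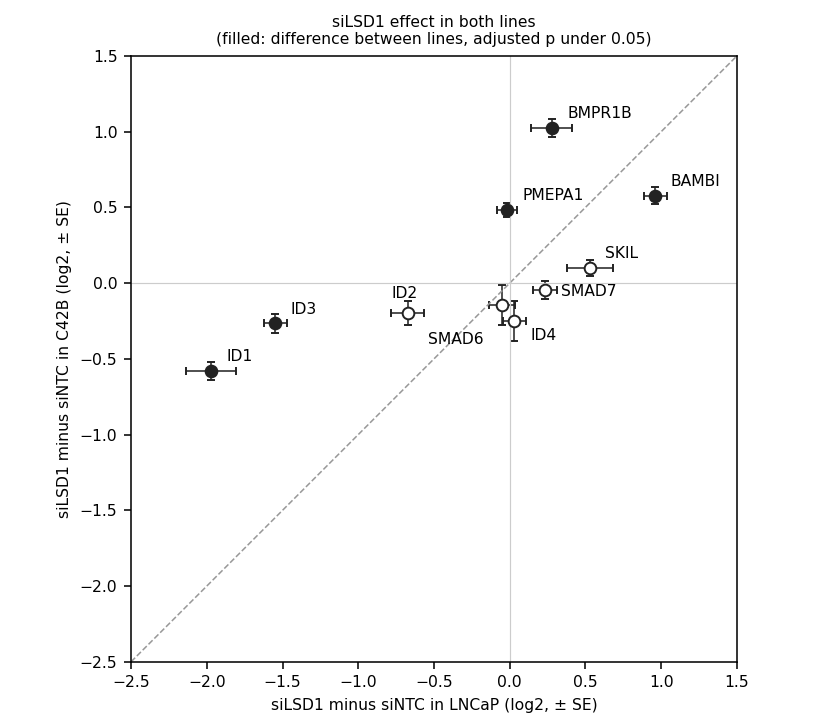
siLSD1 minus siNTC difference in C42B (vertical, log2) against that in LNCaP (horizontal, log2) for the 10 genes, with SE bars, a dashed line of equal effects and filled points where the lines differed at an adjusted p under 0.05. ID1 and ID3 lie left of the dashed line, at −1.97 and −1.55 in LNCaP and −0.58 and −0.26 in C42B, and BMPR1B and PMEPA1 lie above it.

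**Figure D4:**
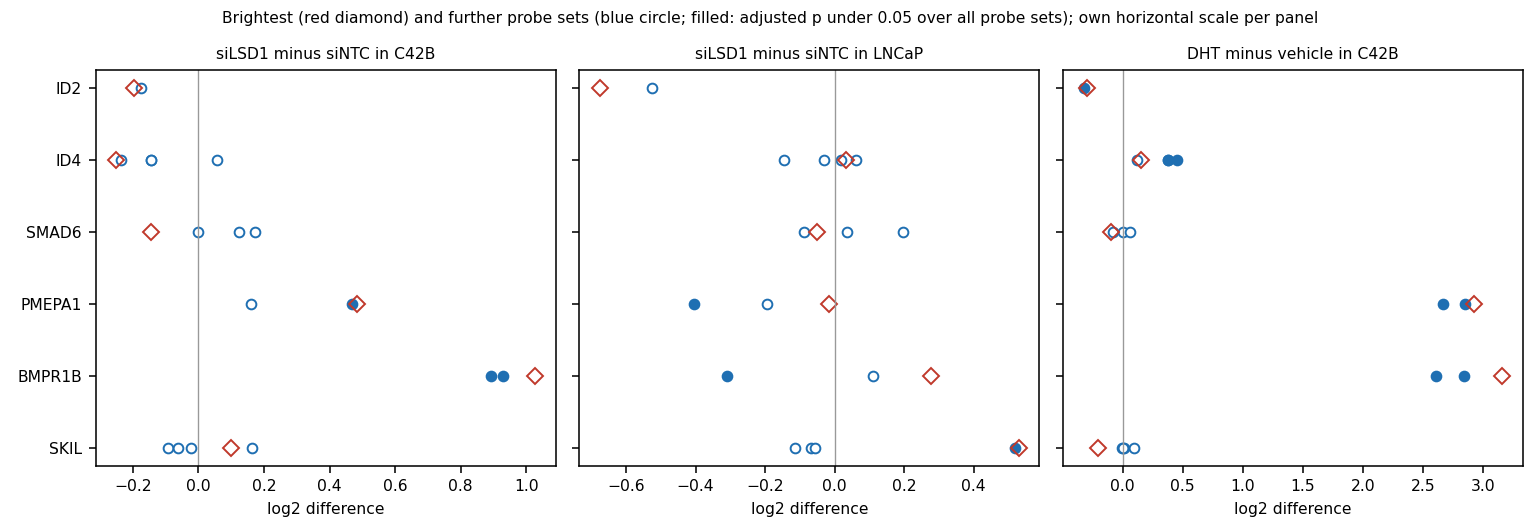
Log2 difference of every probe set of the 6 genes that have more than 1, in the 3 comparisons, with the brightest as an open diamond and the others as circles, filled at an adjusted p under 0.05 over all probe sets. The PMEPA1 and BMPR1B probe sets run from 2.61 to 3.16 with DHT, while in LNCaP those of BMPR1B run from −0.31 to 0.28.

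The rest of the pathway was read through 59 other genes, each with a probe set of its own. With siLSD1 in C42B, 7 of the 59 passed upward and 6 downward, beside 8.66% and 9.39% of all genes. Their median log2 difference was 0.00 beside −0.02 for all genes. By role, 1 of 11 ligands passed upward, as did 3 of 11 receptors and co-receptors, 1 of 6 signalling SMADs and 2 of 10 other targets. Those passing downward were 2 receptors, 1 SMAD, 2 of 11 antagonists and latency proteins and 1 of 3 E proteins. None of 7 other intracellular brakes passed. The counts depended on single arrays: 4 passed upward without siLSD1 replicate 2 or 3 or siNTC replicate 3, and 3 downward without siLSD1 replicate 3 or siNTC replicate 1.

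The genes with the smallest adjusted p upward in C42B were CDKN1A, a cell-cycle inhibitor (0.46 ± 0.06, adjusted p = 0.0023), RUNX2, a bone transcription factor (0.61 ± 0.09, 0.0051), and GDF11, an activin-type ligand (0.37 ± 0.06, 0.0080). Those downward were SMAD5, which carries the BMP signal (−0.47 ± 0.06, 0.0019), ACVR2B, an activin type II receptor (−0.33 ± 0.05, 0.0045), and CHRDL1, a secreted BMP antagonist. CHRDL1 was dim with siLSD1, so its fall from 6.43 was at least 0.43 (adjusted p = 0.0078). RUNX2 did not pass with the mean of its probe sets (0.06, adjusted p = 0.50), nor did ACVR2B (−0.31, adjusted p = 0.054).

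In LNCaP 14 of the 59 passed upward and 4 downward, beside 13.4% and 12.5% of all genes (median 0.04 beside 0.01 for all genes). Upward were 3 ligands, 4 receptors, 2 SMADs, 1 brake, 3 antagonists and latency proteins and 1 other target. Downward were 1 SMAD, 1 other target and 2 E proteins, 2 genes in all without siLSD1 replicate 1 or 3 or siNTC replicate 2 or 3. ACVR1B, an activin type I receptor, rose by 0.61 ± 0.05 (adjusted p = 1.0e-04), CDKN1A by 0.51 ± 0.05 (2.7e-04) and INHBB, an activin subunit, by 0.78 ± 0.08 (2.7e-04). SMAD5 fell by 57.7% (−1.24 ± 0.09, adjusted p = 5.3e-05) and TCF3, an E protein that ID proteins bind, by 0.30 ± 0.05 on the log2 scale (difference −0.30, adjusted p = 0.0038). CDKN2B also passed downward (adjusted p = 0.036) but was dim in both groups, and the mean of its probe sets gave 0.14. ACVR1B did not pass with the mean of its probe sets (0.16, adjusted p = 0.063).

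With DHT 15 of the 59 passed upward and 11 downward, beside 13.4% and 19.4% of all genes (median 0.03 beside 0.01 for all genes). Upward were 1 ligand, 4 receptors and co-receptors, 1 SMAD, 3 brakes, 2 antagonists and latency proteins, 3 other targets and 1 E protein. Downward were 2 ligands, 2 receptors, 2 SMADs, 1 brake, 2 antagonists and latency proteins and 2 other targets. RGMB, a BMP co-receptor, rose by 0.77 ± 0.04 (adjusted p = 4.5e-07), the E protein TCF4 by 0.57 ± 0.04 (3.6e-06) and SMURF2, a ubiquitin ligase that marks SMADs and receptors for breakdown, by 0.50 ± 0.05 (2.8e-05). MSX2, a BMP target, differed by −0.77 ± 0.06 (1.5e-05), INHBB by −0.77 ± 0.08 (4.6e-05) and the BMP transducer SMAD1 by −0.63 ± 0.07 (6.1e-05), so all 3 fell.

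The genes that passed in all 3 comparisons were 4: GDF11, CDKN1A, ACVR1 and TCF4. The share of all genes that did so is not given here, so the count is only a description. GDF11 rose by 0.37, 0.34 and 0.37 in C42B and LNCaP under siLSD1 and in C42B under DHT, and CDKN1A by 0.46, 0.51 and 0.32. GDF11 did not pass in LNCaP without siLSD1 replicate 1 (adjusted p = 0.056). ACVR1, a type I receptor, rose by 0.31 and 0.70 with siLSD1 in C42B and LNCaP, while its DHT difference was −0.18 (adjusted p = 0.049). TCF4 differed by −0.19 in C42B, by −0.36 in LNCaP, where it was dim in both groups, and by 0.57 with DHT. The C42B siLSD1 call of ACVR1 was lost without siLSD1 replicate 2 (adjusted p = 0.091) or 3 (0.095) or any siNTC replicate (0.050 to 0.081), or with the replicate block (0.058), and that of TCF4 without any 1 of the 6 arrays (0.073 to 0.11) and in 5 other settings (0.071 to 0.17). The DHT call of ACVR1 was lost without DHT replicate 3 or 4 or vehicle replicate 1, 2 or 4 (0.068 to 0.12), and in 5 other settings: median centring (0.061), the replicate block (0.074), arrayWeights (0.097), all 20 arrays in 1 model (0.053) and every probe set tested (0.065). The LNCaP call of TCF4 was lost without siLSD1 replicate 1 or 3 or siNTC replicate 2 or 3 (0.12 to 0.14).

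Between the lines, 2 of the 59 had a more positive siLSD1 effect in C42B and 12 a less positive one. Over all genes the shares were 5.56% and 6.07% (median −0.05 for the 59 beside −0.02 for all genes). SMAD5 had the more positive effect in C42B by 0.77 ± 0.12 (adjusted p = 0.0011), since it fell less there, as did ID1 and ID3. RUNX2 was the other (0.58 ± 0.14, adjusted p = 0.021). It did not pass without siLSD1 replicate 2 (0.057) or 3 (0.058) or siNTC replicate 3 of C42B (0.054) or siNTC replicate 3 of LNCaP (0.053). The 12 held 2 ligands, 5 receptors, 1 brake and 4 antagonists and latency proteins, led by ACVR1B (−0.44 ± 0.06, adjusted p = 7.9e-04), INHBB (−0.74 ± 0.11, 9.8e-04) and CHRDL1 (0.0018). CHRDL1 was dim in both LNCaP groups and with siLSD1 in C42B, so no size is read for it. With the mean of their probe sets, the differences of RUNX2 (0.03, adjusted p = 0.80) and ACVR1B (−0.13, adjusted p = 0.30) did not pass. The count of 2 became 4 without siLSD1 replicate 1 of C42B, and 1 without any of the 4 arrays that ended the RUNX2 call.

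For the genes with the largest changes, the closest patterns among 14716 genes bright in at least 1 group were sought. Likeness was the root mean square difference of the log2 values over the 20 arrays, each set against its own control mean. KIF14 (0.156), CDK19 (0.158) and TMX1 (0.168) were closest to ID1. KIF14, a mitotic kinesin, had siLSD1 differences of −0.74 in C42B and −2.01 in LNCaP and a DHT difference of −0.15. ANLN (0.0962), DTL (0.108) and CEP55 (0.114) were closest to ID3, and ANLN, a cytokinesis protein, had differences of −0.31, −1.51 and 0.02. RNF144B (0.138) was closest to BAMBI with differences of 0.83, 0.86 and −1.54, followed by NAPEPLD (0.152) and HOXC13 (0.161). PMEPA1 was most like MICAL1 (0.133), AFF3 (0.178) and KLK3 (0.200), the gene of prostate-specific antigen, whose differences were 0.40, 0.36 and 2.74. BMPR1B was most like RHOU (0.228), HECW2-AS1 (0.240) and MAK (0.264), and RHOU had differences of 0.65, 0.40 and 3.33. These are descriptions of 20 arrays that share 3 sets of controls.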

How the data were processed

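Affymetrix 3′ expression arrays measured the RNA of 20 C42B and LNCaP cultures. The deposited values are linear intensities per probe set (4.34 to 36333), and the submitters' processing notes name RMA and affy, without versions. The labels name 2 labelling kits without saying which arrays had which. Of the probe sets, 41091 name 1 gene, 1801 several and 11721 none, besides 62 controls. Log2 was taken of the deposited intensity values, and the brightest probe set per gene (19775 genes) entered limma 3.58.1 (lmFit, then eBayes, two-sided, R 4.3.3) on the arrays of each comparison, without covariates and with no dim gene removed. The difference between lines was a contrast over the 12 siRNA arrays. P-values were adjusted by Benjamini-Hochberg over all genes. Array replicates of a group differed by SDs of 0.133 to 0.212 over all probe sets, and none were identical. The precision is limited by the number of arrays. The fit was tested on simulated data.

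Text names all 10 genes, up to 3 other pathway genes per direction and comparison with the smallest adjusted p, those called in all 3 two-group comparisons, and the 3 nearest patterns for ID1 and members changed by at least 1 on the log2 scale. The members, lists and rules were chosen with earlier results of these data known. Alternatives changed the scaling (quantile, median centring), the genes tested (the mean over probe sets, each probe set, bright genes), the model (replicate block, a robust eBayes trend, arrayWeights, 1 fit of all 20 arrays) or the arrays (each left out in turn). Python 3.11.15 with pandas 2.3.3 and numpy 2.4.6 made the tables, and matplotlib 3.10.9 the figures. Raw scans were not used here.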

Additional observations from a re-analysis of the deposited data

Results flagged for a closer look

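The siLSD1 effect differed between C42B and LNCaP for 5 of the 10 genes, by the contrast over the 12 siRNA arrays. Over all genes, 5.56% had a more positive effect in C42B and 6.07% a less positive one. The 10 genes were chosen with earlier results of these data known, so their count is no test. The difference, C42B minus LNCaP, was 1.39 as measured for ID1 (at least 1.01 when its dim LNCaP level is counted from 6), 1.28 for ID3, −0.38 for BAMBI, 0.50 for PMEPA1 and 0.75 for BMPR1B on the log2 scale. ID1 and ID3 fell in both lines and fell further in LNCaP. BAMBI rose in both and rose further in LNCaP. On their brightest probe sets, PMEPA1 and BMPR1B passed the test in C42B and not in LNCaP. Another probe set of each passed downward in LNCaP: 222449_at of PMEPA1 (−0.40, adjusted p = 0.0024) and 210523_at of BMPR1B (−0.31, adjusted p = 0.012). In C42B 222449_at did not pass (0.16, adjusted p = 0.095). The lines were also grown in different sera and transfected by different protocols, so these cannot be told apart from the line.

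Of 20 sets of 4 arrays, 2 held an array that stood far from the other 3, where chance gives about 1 in 20. ID3 was lowest on DHT replicate 3 (9.41, the others 9.51 to 9.53), with a gap of 0.856 of the group's range. SMAD6 was highest on DHT replicate 2 (8.53, the others 8.41 to 8.43), with a gap of 0.842 of the range. Neither gene passed the test with DHT.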

How the results depend on the processing

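Of 21 calls for the 10 genes in the 4 comparisons, 16 held under every alternative and 5 were lost under at least 1: ID3 with siLSD1 in C42B, SKIL in LNCaP, ID2 and SKIL with DHT, and the BAMBI difference between lines. Of 19 values that were not called, 11 were called under at least 1. With the mean of all probe sets, 1 gene was called higher in LNCaP in place of 2. Whether replicate numbers pair these arrays could not be settled from the values, and the main fits take the arrays as unpaired. Those of the same number correlated at −0.096 to 0.18 in C42B, −0.019 to 0.20 in LNCaP and −0.075 to 0.099 with DHT. Those of different numbers reached 0.14, 0.19 and 0.15. In that order, 3 of 6, 2 of 6 and 4 of 8 correlated best with their own number. With the replicate block, 1 gene was called lower in C42B (ID3 reached an adjusted p of 0.055), 4 higher in LNCaP (SMAD7 at 0.039 and BMPR1B at 0.020 were added) and 2 lower in the difference between lines (SKIL at 0.037 was added). With arrayWeights 2 were lower in that difference, and over all genes 1726 were higher and 1831 lower, beside 1100 and 1200. Leaving out single arrays gave 1 to 2 genes lower in C42B, 1 to 2 higher in LNCaP, 2 to 5 lower with DHT and 0 to 2 lower in the difference between lines. Over all genes it gave 958 to 1975 higher and 949 to 1987 lower in C42B, beside 1713 and 1856. Bright genes only gave 10 other pathway genes lower in C42B in place of 6.

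The values that changed sign were uncalled ones near 0, and CDKN2B, which was dim. With the mean of all probe sets they were SMAD6 in C42B (0.037), in LNCaP (0.024) and in the difference between lines (0.013), ID4 in LNCaP (−0.014) and CDKN2B in LNCaP (0.14). Quantile normalization turned PMEPA1 in LNCaP (3.7e-04), and arrayWeights turned the SMAD6 difference between lines (0.032). Without single arrays, SMAD6 ran from −0.23 to 0.018 in C42B, from −0.11 to 0.013 in LNCaP and from −0.18 to 0.068 in the difference, PMEPA1 in LNCaP from −0.045 to 0.033 and ID4 in LNCaP from −0.034 to 0.098. The cause of these changes was not tested. No scaling moved the median of all genes by more than 0.05. Groups of 3 or 4 arrays and signals near background in LNCaP (ID1 and ID3 with siLSD1, ID4 in both groups) limit what could be read.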
